A study of Homo sapiens with 6 samples.

Results

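Of the 58735 genes in an RNA-Seq count table of BT549 cells, 10 genes of the Notch pathway were examined. They were taken by their Ensembl symbols and comprised 3 receptors (NOTCH1, NOTCH2 and NOTCH3), 3 ligands (JAG1, JAG2 and DLL1) and 4 target genes (HEY1, HES1, HES4 and NRARP). BT549 cells are an established line from a breast tumour of basal-like, mesenchymal character. The paper describes the compound AS1842856 as binding the transcription factor FOXO1 when unphosphorylated and keeping it from DNA. It proposes that the compound modulates FOXO1 and does not only inhibit it. The data held 6 libraries from the same line, 3 from cells given DMSO as the control and 3 from cells given AS1842856 for 48 h. The dose was 200 nM per the labels. The paper's text gives a higher dose, and the difference was not resolved here. The paper calls the libraries biological replicates, and the labels name them A, B and C in both groups.

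Notch receptors sit in the cell membrane and are activated by ligands on a neighbouring cell. Ligand binding lets an ADAM protease and then gamma-secretase cut the receptor, and the freed intracellular part enters the nucleus, where it joins the DNA-binding protein RBPJ and a Mastermind coactivator. This complex switches on genes such as those of the HES and HEY repressors, and NRARP, which in turn limits the pathway. In breast tissue the pathway is known for its part in lineage choice and in stem-like tumour cells. JAG1 is also known as a gene that WNT signalling can raise.

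Library totals ranged from 15289500 to 22981832 counts and overlapped between the groups, and no replicate pair was close enough to be the same library. Genes of the mitochondrial genome took 2.83% to 3.02% of the counts in DMSO and 2.65% to 2.74% with AS1842856, without overlap. The 8 markers of mesenchymal basal-like cells were all tested, with a summed level of 4105 to 4224 CPM in DMSO (CPM are counts scaled to a common library size) and 3584 to 3636 CPM with AS1842856. They moved in both directions, with FN1 (449.5 and 981 CPM) and ZEB1 (69.7 and 98.5 CPM) higher and the other 6 lower, AXL the most (423 and 135 CPM). Of 8 luminal markers, ESR1 and CDH1 had at most 1 count in any library, PGR and EPCAM were too low to be tested, and the summed level of the list was 125 to 129 CPM in DMSO and 65.3 to 74.2 CPM with AS1842856, with the keratin genes KRT8 (40.9 and 4.15 CPM) and KRT18 (33.9 and 3.45 CPM) lower and GATA3 (50.9 and 61.7 CPM) higher. GATA3 is also among the other Notch pathway genes below. The 4 endothelial markers summed to at most 1.68 CPM with CDH5 at 0, and the 4 leukocyte markers to between 1.02 and 2.02 CPM in DMSO and between 3.48 and 4.65 CPM with AS1842856, with CD3E at 0 and PTPRC at 1.15 and 3.16 CPM. The part of these shifts in the results for the Notch genes was not tested. In bulk RNA, fewer cells with a transcript and less of it per cell cannot be told apart.

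The promoters of HES1 and HES4 carried letters known from RBPJ binding, and they are shown as a description, without a comparison with HEY1. RefSeq promoters on GRCh38.p14, from 250 bases before to 50 after each start, were at hand for 8 of the 10 genes, without DLL1 and HEY1. The core letters TGGGAA, searched on both strands, were present in 2 of the 8, HES1 and HES4, and in 24.0% of all 35116 promoters. For the core, the count of 2 of 8 was thus near the share over all promoters. In both genes the core was also part of the longer GTGGGAA, which overlaps it and was in 6.25% of all promoters. HES1 (chr3:194135998-194136144, plus strand) had the core at 2 places whose first letters were 14 bases apart, in the same orientation, and its stretch from base -150 to base -4 before the start reads as follows, with the core in capitals.
HES1: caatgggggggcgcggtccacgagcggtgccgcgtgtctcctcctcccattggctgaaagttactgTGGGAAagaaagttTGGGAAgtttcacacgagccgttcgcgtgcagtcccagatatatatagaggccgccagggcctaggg

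Aligned on the first core, 30 bases of HES1 (chr3:194136056-194136085) and of HES4 (chr1:1000152-1000181, minus strand) were identical at 17 positions, and HES4 lacked the second core in this window.
HES1 window: agttactgTGGGAAagaaagttTGGGAAgt
HES4 window: ggcgagtgTGGGAAagaatgcggagccggg

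The FOXO letters GTAAACA were in none of the 8 promoters (3.42% of all promoters held them), and neither were the TCF/LEF letters TCAAAG (12.9% of all). The letters CACGNG, known from HES and HEY binding, were in 6 of the 8 (30.5% of all), with 4 matches in HES1 itself, a gene known to be repressed by its own product. The related letters CACNAG, which overlap CACGNG where the sequence is CACGAG, were in 5 of the 8 (38.0% of all). These matches are descriptions of short windows and do not show binding. Only the letters given were searched, so binding sites with other letters were not marked, and the 2 marked places in HES1 are not shown to be a pair.

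All 3 receptors and 2 of 3 ligands were lower with AS1842856, while the ligand JAG1 and the target HEY1 were higher. Of the 10 genes, 9 had enough counts to be tested. Of these, 7 were called by edgeR's quasi-likelihood test (adjusted p below 0.05), 2 higher and 5 lower. Over all 14338 genes tested the same rule called 56.0%, with 27.6% higher and 28.4% lower. The median log2 fold change of the 9 was -0.48, against 0.0030 over all genes tested. Calls with a log2 fold change of 1 or more in size were made for 4 of the 9 (JAG1, JAG2, DLL1 and HEY1), and for 10.6% of all genes. The groups did not overlap in the 7 called genes, and 59.9% of all genes tested showed no overlap. HEY1 was among the WNT pathway genes that the study picked out of these same libraries, so its call is not independent evidence. The paper also reports enrichment of a WNT and beta-catenin gene set in these libraries. Which other members belong to that set was not examined here, so their calls may not be independent of that report either. The paper also reports a rise of HEY1 in treated BT549 cells by qRT-PCR. The target genes HES1 and HES4 did not pass the test, and NRARP had too few counts to be tested.

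**Figure D1:**
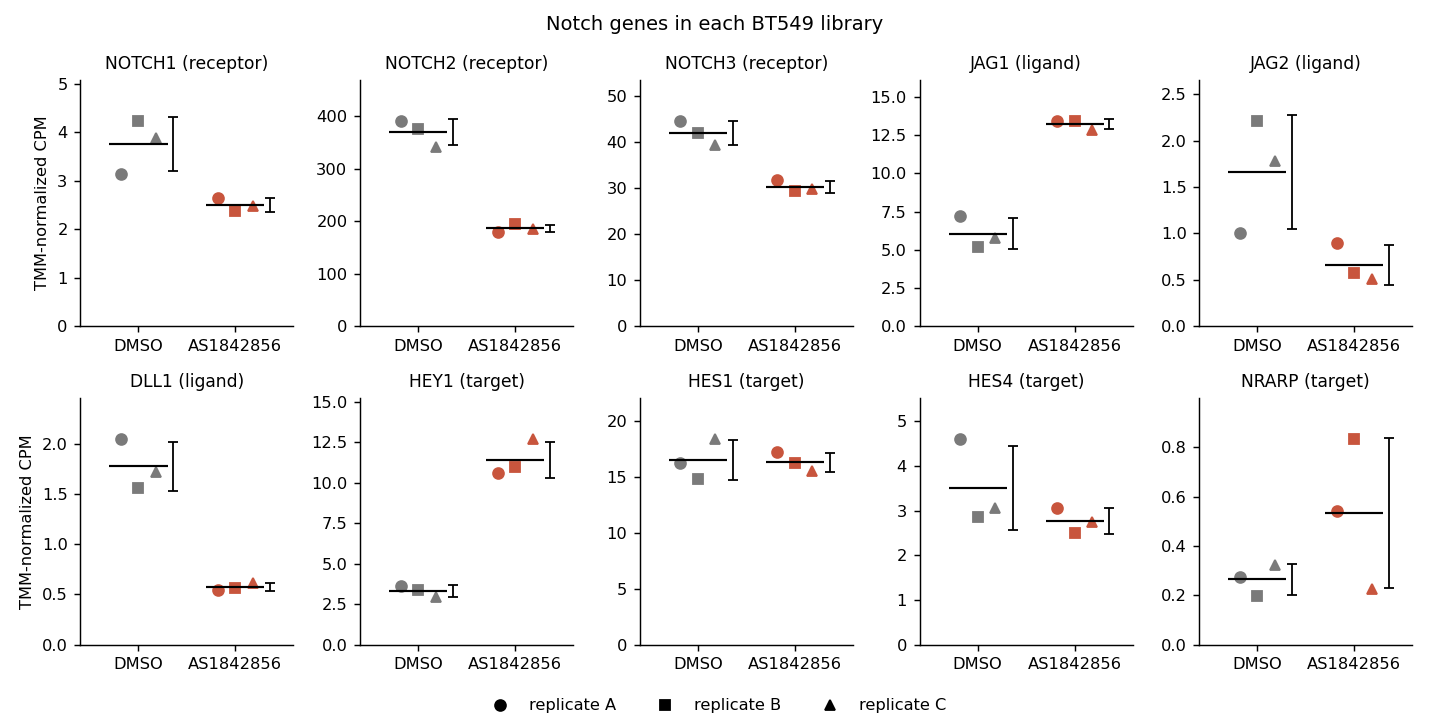
TMM-normalized CPM (vertical axes, each from 0) of the 10 Notch genes in the DMSO and AS1842856 libraries, with 1 point per library, a line at the mean and a bar of 1 SD (n = 3). NOTCH2 sits at 342 to 391 CPM in DMSO and 179 to 194 CPM with AS1842856, HEY1 moves the opposite way, and the groups overlap in HES1, HES4 and NRARP.

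NOTCH2 was by far the most abundant Notch receptor transcript and was lower in every AS1842856 library. The gene (ENSG00000134250, chromosome 1 from 119911553 to 120069626 on GRCh38 in GENCODE release 29, which gives all positions below, and protein-coding like the other 9) had 391, 376 and 342 CPM in DMSO and 179, 194 and 185 CPM with AS1842856 (replicates A, B and C). Every AS1842856 library was far below the lowest DMSO library. The means were 369.8 ± 25.2 CPM in the DMSO libraries and 186 ± 7.12 CPM in the AS1842856 libraries (SD, n = 3 libraries a group), so that DMSO cells held 1.99-fold more. On the log2 scale the change was -0.99 with a standard error of 0.04 (adjusted p = 1.48e-59, edgeR). Partial copies of NOTCH2 exist in the human genome, and reads in the shared part can be assigned to either. The copy named NOTCH2NLA in the annotation held 11 to 25 counts in a library, or 0.268% to 0.407% of the NOTCH2 count. The names NOTCH2NL, NOTCH2NLB, NOTCH2NLC and NOTCH2NLR had no entry, so this share does not bound the reads from all copies.

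NOTCH3, a receptor known from vascular smooth muscle and from basal-like breast tumours, fell by a smaller factor. It (ENSG00000074181, chromosome 19 from 15159038 to 15200981) had 44.5, 42.0 and 39.3 CPM in DMSO and 31.7, 29.2 and 29.7 CPM with AS1842856, again without overlap. This was a log2 fold change of -0.48 ± 0.07 (standard error), with an adjusted p of 6.72e-11 in edgeR.

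NOTCH1, the receptor mutated in T-cell leukaemia, had the lowest level of these 3 receptors. The gene (ENSG00000148400, chromosome 9 from 136494433 to 136545786) had 69, 65 and 72 counts in DMSO and 44, 54 and 44 counts with AS1842856. In CPM these were 3.14, 4.23 and 3.87 in DMSO and 2.64, 2.36 and 2.47 with AS1842856. The lowest DMSO library, replicate A, lay not far above the highest AS1842856 library. In edgeR the log2 fold change was -0.58, its standard error 0.22 and the adjusted p = 0.0152, and the call was lost without DMSO replicate B (log2 fold change -0.50, adjusted p = 0.0703) and in DESeq2 (adjusted p = 0.0798).

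The ligand JAG1 rose while JAG2 and DLL1 fell. JAG1 (ENSG00000101384, chromosome 20 from 10637684 to 10673999), a membrane-bound Jagged ligand, had 7.20, 5.21 and 5.76 CPM in DMSO and 13.4, 13.4 and 12.8 CPM with AS1842856. The 3 AS1842856 libraries lay within a narrow range well above all of DMSO. The means were 6.05 ± 1.03 and 13.2 ± 0.347 CPM (SD, n = 3 libraries a group), 2.16-fold higher with AS1842856. Its log2 fold change of 1.11 had a standard error of 0.12 (edgeR, adjusted p = 1.01e-15).

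JAG2 (ENSG00000184916, chromosome 14 from 105140981 to 105168824), the second Jagged ligand, was measured with few reads. It had 22, 34 and 33 counts in DMSO and 15, 13 and 9 counts with AS1842856, or 1.0, 2.21 and 1.78 CPM against 0.900, 0.569 and 0.505 CPM. DMSO replicate A lay just above AS1842856 replicate A, and the other libraries were well apart. The edgeR fit gave a log2 fold change of -1.32 and a standard error of 0.37 (adjusted p = 0.00110), with a 95% interval from -2.04 to -0.59. Leaving out single libraries moved it between -1.61 and -1.08.

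DLL1, a Delta-like ligand, had the largest fall of the 9 tested genes. It (ENSG00000198719, chromosome 6 from 170282206 to 170306565) went from 45, 24 and 32 counts in DMSO to 9, 13 and 11 counts with AS1842856, or from 2.05, 1.56 and 1.72 CPM to 0.540, 0.569 and 0.617 CPM. No AS1842856 library came near the lowest DMSO library. This was a log2 fold change of -1.63 ± 0.36 (standard error), with an adjusted p of 3.84e-05 in edgeR, so that DMSO cells held 3.09-fold more. DLL1 lies across from FAM120B on the opposite strand, and although the exons of the genes overlapped by 0 bases, FAM120B held 556 counts on average against 22.3 for DLL1. FAM120B itself had a log2 fold change of -0.22.

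HEY1 was the target gene that rose. It encodes a basic helix-loop-helix repressor and was the only one of the 3 tested targets to pass the test. The gene (ENSG00000164683, chromosome 8 from 79764010 to 79767863) had 79, 52 and 54 counts in DMSO and 176, 250 and 226 counts with AS1842856. In CPM these were 3.60, 3.39 and 2.91 in DMSO and 10.6, 10.9 and 12.7 with AS1842856, without overlap. In edgeR the log2 fold change was 1.78, its standard error 0.15 and the adjusted p = 8.91e-26, or 3.44-fold higher with AS1842856, and it was the largest rise of the 9 tested genes.

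HES1, the classical target repressor whose promoter holds the core letters shown above, gave no detectable difference. The gene (ENSG00000114315, chromosome 3 from 194136145 to 194138732) had 16.3, 14.8 and 18.4 CPM in DMSO and 17.2, 16.2 and 15.5 CPM with AS1842856. All 3 AS1842856 libraries lay within the range of the DMSO libraries. The edgeR fit gave a log2 fold change of -0.02 and a standard error of 0.10 (adjusted p = 0.890), with a 95% interval from -0.21 to 0.17. Leaving out single libraries moved it between -0.09 and 0.06.

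HES4 (ENSG00000188290, chromosome 1 from 998962 to 1000172), a HES repressor gene that has no counterpart in mice, had 4.6, 2.86 and 3.07 CPM in DMSO and 3.06, 2.50 and 2.75 CPM with AS1842856. DMSO replicate A stood above the other 5 libraries, which overlapped. This was a log2 fold change of -0.37 ± 0.21 (standard error), with an adjusted p of 0.126 in edgeR and a 95% interval from -0.79 to 0.04. Without DMSO replicate A it was -0.11.

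NRARP (ENSG00000198435, chromosome 9 from 137300482 to 137302251), which encodes a small ankyrin protein that acts on the Notch nuclear complex, had 6, 3 and 6 counts in DMSO and 9, 19 and 4 counts with AS1842856. In CPM these were 0.273, 0.195 and 0.323 in DMSO and 0.540, 0.832 and 0.224 with AS1842856. Replicates A and B of AS1842856 were above all of DMSO, and replicate C lay within the DMSO range. An exact two-sided permutation test of the CPM values gave p = 0.30, where 0.10 is the smallest p that 3 libraries against 3 allow. With no filter NRARP was not called in edgeR (adjusted p = 0.266) or in DESeq2 (log2 fold change 1.02, adjusted p = 0.360), and it was called in edgeR without AS1842856 replicate C (log2 fold change 1.37, adjusted p = 0.0463). With all 6 libraries a difference in NRARP was not detectable at this depth.

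**Figure D2:**
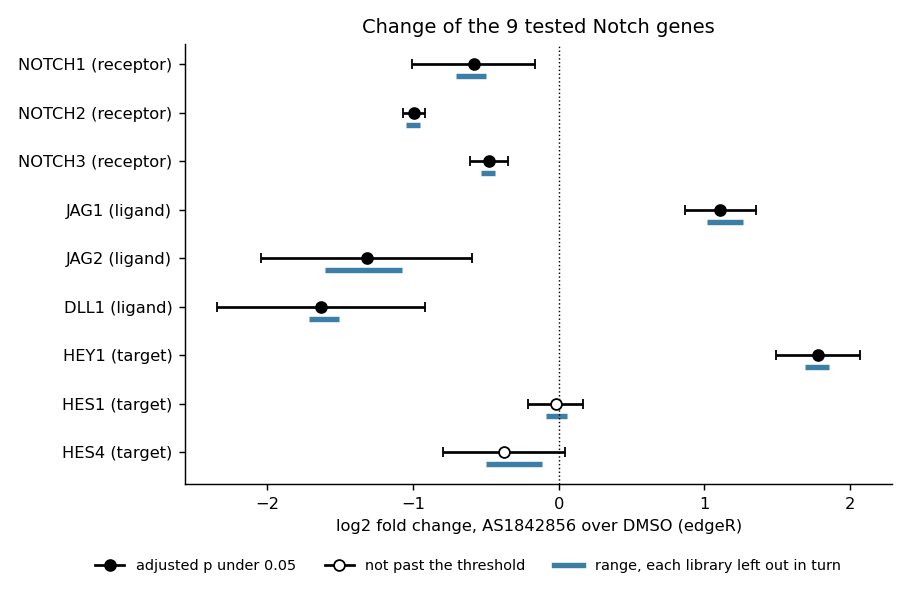
Log2 fold change of AS1842856 over DMSO (horizontal axis) for the 9 tested Notch genes, with 95% intervals as thin bars and the range over fits that leave out 1 library as thick bars. HEY1 (1.78) and JAG1 (1.11) lie right of 0, the 3 receptors, JAG2 and DLL1 lie left of it, and the intervals of HES1 and HES4 include 0.

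Levels were compared between genes on deposited FPKM, which are divided by gene length. In DMSO the order was NOTCH2 at 21.9 ± 1.49 FPKM, HES1 at 7.94 ± 0.872, NOTCH3 at 4.44 ± 0.277, HES4 at 3.12 ± 0.847 and HEY1 at 1.01 ± 0.109 (SD, n = 3). Below 1 FPKM came JAG1 at 0.647 ± 0.111, DLL1 at 0.548 ± 0.0772, NOTCH1 at 0.359 ± 0.0527, JAG2 at 0.258 ± 0.0950 and NRARP at 0.148 ± 0.0363. Neighbours in this order whose libraries overlapped were JAG1 and DLL1, NOTCH1 and JAG2, and JAG2 and NRARP. Among these genes, receptor and target transcripts thus stood above ligand transcripts in DMSO, apart from NOTCH1 and NRARP. DLL3 and DLK2, ligands outside this set, had means of 2.52 and 2.50 FPKM in DMSO, above HEY1.

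With AS1842856 the order began in the same way, with NOTCH2 at 11 ± 0.417 FPKM and HES1 at 7.87 ± 0.419. HEY1 came next at 3.50 ± 0.342 FPKM, overlapping with NOTCH3 at 3.20 ± 0.146, and ahead of HES4 at 2.46 ± 0.253 and JAG1 at 1.42 ± 0.0386. NRARP, at 0.299 ± 0.171 FPKM, overlapped with NOTCH1 at 0.239 ± 0.0135. DLL1 at 0.177 ± 0.0117 FPKM and JAG2 at 0.102 ± 0.0331 FPKM had the lowest means. By group means, the rank of HEY1 thus moved from 5 to 3 and that of DLL1 from 7 to 9. The NRARP libraries, at 0.126 to 0.467 FPKM, spanned all of DLL1 and overlapped with JAG2. The place of NRARP above these 2 genes is therefore uncertain.

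**Figure D3:**
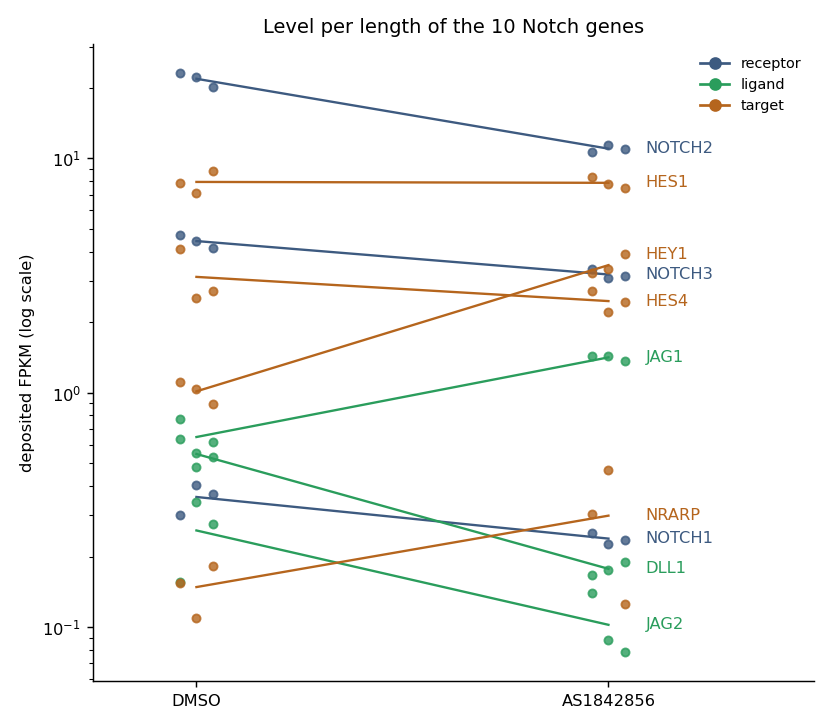
Deposited FPKM (vertical log axis) of the 10 Notch genes in DMSO and AS1842856, with 1 point per library and lines joining the group means, coloured by role. NOTCH2 is highest in both groups, the line of HEY1 crosses those of HES4 and NOTCH3, and JAG1 parts from DLL1 and JAG2.

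The make-up of the receptor and ligand transcripts was compared within each library, where scaling between libraries has no part. NOTCH2 made up 82.0% ± 0.269 of the summed FPKM of the 3 receptors in DMSO and 76.2% ± 1.48 with AS1842856 (SD, n = 3 libraries a group). The share of NOTCH3 was 16.7% ± 0.225 in DMSO and 22.2% ± 1.36 with AS1842856, and that of NOTCH1 was 1.35% ± 0.247 and 1.65% ± 0.122. The sum of the 3 receptors, which unlike the shares depends on scaling between libraries, went from 26.7 ± 1.74 to 14.4 ± 0.286 FPKM.

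Among the 3 ligands the share of JAG1 was 44.3% ± 4.66 in DMSO and 83.5% ± 1.03 with AS1842856. DLL1 held 37.6% ± 2.88 in DMSO and 10.5% ± 1.03 with AS1842856, and JAG2 held 18.1% ± 7.53 and 6.0% ± 1.76. The sum of the 3 ligands, which also depends on scaling, was 1.45 ± 0.0931 FPKM in DMSO and 1.69 ± 0.0531 FPKM with AS1842856. JAG1 thus had the largest share of these 3 ligands in every library, by a far wider margin with AS1842856. DLL3, a ligand outside this set, was higher than JAG1 in every library, with means of 2.52 FPKM in DMSO and 2.15 FPKM with AS1842856. It did not pass the test (log2 fold change -0.24, adjusted p = 0.160, edgeR).

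**Figure D4:**
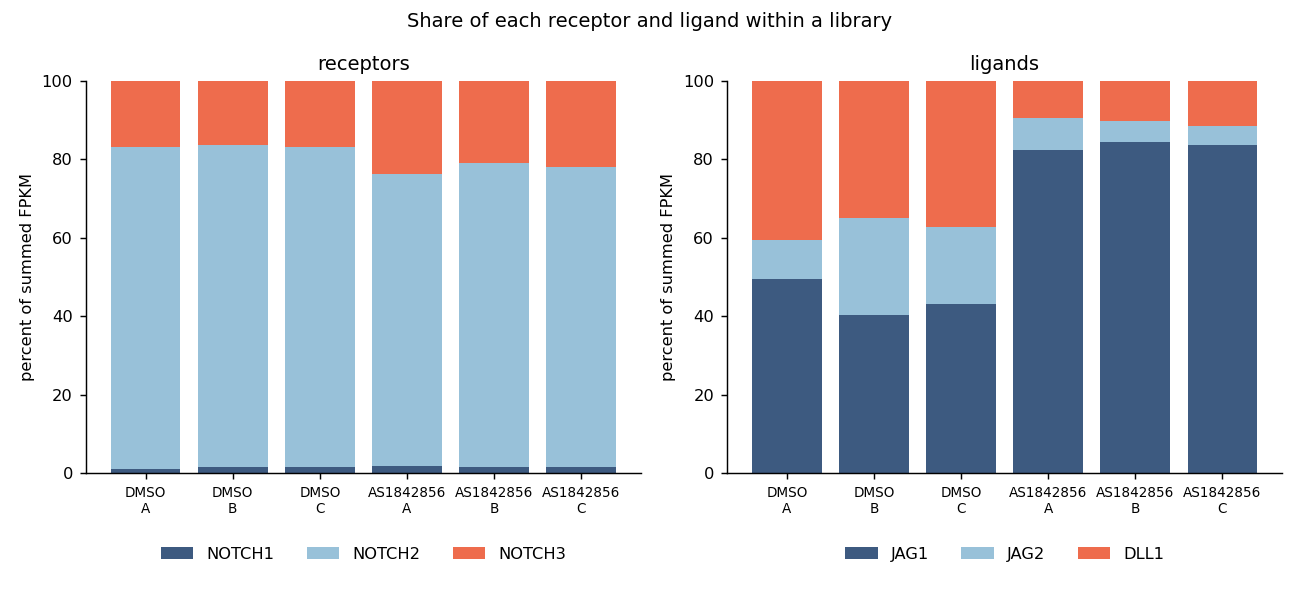
Share of each examined receptor (left) and ligand (right) in the summed FPKM of the examined genes of its class, in percent, with 1 bar for each of the 6 libraries. NOTCH2 is at least 74.6% of the receptor sum in every library, while JAG1 goes from 40.3% to 49.4% in DMSO to 82.4% to 84.5% with AS1842856.

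Ratios between members were also compared by an exact two-sided permutation test over the 6 libraries, which cannot give a p below 0.10. The log2 ratio of JAG1 to JAG2 was 1.39 ± 0.829 in DMSO and 3.84 ± 0.416 with AS1842856 (SD, n = 3 libraries a group), a difference of 2.45. That of HEY1 to HES1 was -2.97 ± 0.294 and -1.17 ± 0.209, a difference of 1.80. That of NOTCH3 to NOTCH2 was -2.30 ± 0.0224 and -1.78 ± 0.116, a difference of 0.52, and that of NOTCH1 to NOTCH2 differed by 0.41. In all 4 ratios the groups did not overlap, which with 3 libraries against 3 sets the permutation p at 0.10 by itself. This p was 0.10 also when adjusted over the 4 ratios. Among single genes tested 59.9% showed no overlap in CPM, and no such share was computed for ratios. JAG1 and JAG2 were called in opposite directions, so their ratio is not separate evidence.

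The rest of the pathway changed in both directions. Of 68 other Notch pathway genes, 56 were tested and edgeR called 38 of them, 18 up and 20 down. Their median log2 fold change was 0.04. Among all genes tested 56.0% were called, 27.6% higher and 28.4% lower. The counts by role below stand beside the same shares, and no role was tested against them. Of the 56, 5 were called with a log2 fold change of 1 or more in size, beside 10.6% of all genes tested. The receptor NOTCH4 and the ligand DLL4 had no more than 8 counts in any library, HEY2 and HEYL no more than 3 and HES5 had none.

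Of 4 other ligands, 2 were tested, and DLK2, a non-canonical ligand, fell by 1.31 on the log2 scale (edgeR, adjusted p = 4.50e-10). DLK2 shares 79 exonic bases with ABCC10 on the opposite strand, which held more counts, so the counts of DLK2 are uncertain. ABCC10 itself had a log2 fold change of 0.10 (edgeR, adjusted p = 0.248). Both of the tested other HES genes rose. HES6, which is known to oppose HES1, had a log2 fold change of 0.57 and HES7, known from the segmentation clock, one of 0.68. The call of HES7 was lost in DESeq2 (adjusted p = 0.0504).

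Of 3 proteases, FURIN, which cuts the receptor on its way to the membrane, had a log2 fold change of -0.88 and ADAM17 one of -0.40, while ADAM10 did not pass (log2 fold change -0.07, adjusted p = 0.192, edgeR's test). ADAM17 shares 1323 exonic bases with IAH1 on the opposite strand, so its counts are uncertain. IAH1 itself had a log2 fold change of -0.51 (edgeR, adjusted p = 6.46e-06), in the same direction as ADAM17. The part of shared reads in the call of ADAM17 was not tested. Of 6 gamma-secretase subunits, 1 was higher and 2 were lower, led by APH1B with a log2 fold change of -0.55. Over all genes tested 56.0% were called. Among 4 tested glycosyltransferases 2 were lower, and LFNG, the Fringe enzyme that shifts receptors towards Delta-like ligands, showed the largest fall. LFNG had 6.38, 5.14 and 5.17 CPM in DMSO and 2.46, 1.49 and 2.24 CPM with AS1842856, so the groups did not overlap. It fell by 1.47 on the log2 scale, with a standard error of 0.20 (edgeR, adjusted p = 2.05e-11).

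Of 8 tested genes of the nuclear complex, 5 were higher and 1 was lower, all by small amounts. Over all genes tested 27.6% were called higher and 28.4% lower. RBPJ had a log2 fold change of 0.14 and the coactivator genes MAML1 and MAML2 of 0.35 and 0.48. Of 11 corepressor genes, 3 were higher and 4 lower, with TLE1, a Groucho corepressor used by HES and TCF proteins, furthest from 0 at 0.77. Of 3 tested ligases that drive ligand uptake, NEURL1B was lower at -0.49, and the other 2 did not pass. Of 9 tested regulators of receptor turnover, 3 were higher and 3 lower, with DTX2, a Deltex ligase, at -0.94 and NUMB, an inhibitor of Notch, at -0.50.

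All 8 other reported Notch targets were called, 4 higher and 4 lower, beside 56.0% of all genes called, 27.6% higher and 28.4% lower. These genes answer to many pathways besides Notch. CCND1, which encodes cyclin D1, stood at 201 ± 10.8 CPM with DMSO and 644 ± 11.3 CPM with AS1842856 and so rose by 1.68 on the log2 scale, and SNAI2 rose by 0.77. MYC had a log2 fold change of -1.33 and BIRC3, an inhibitor of apoptosis, one of -1.54.

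**Figure D5:**
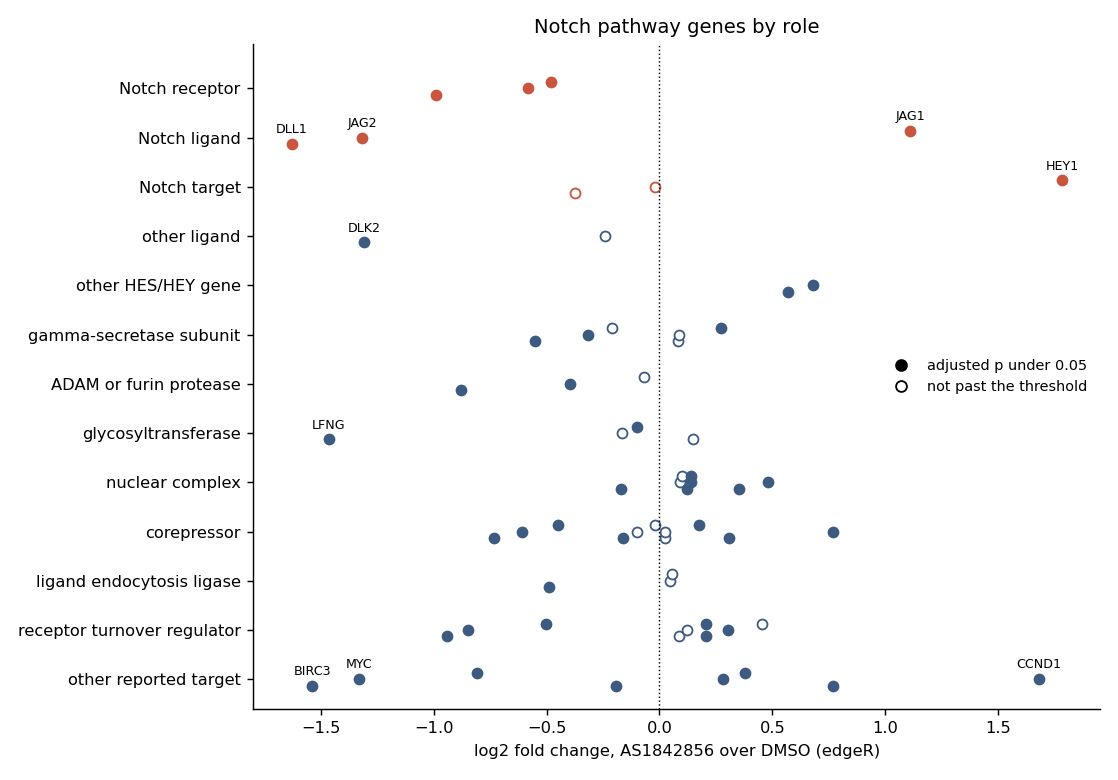
Log2 fold change of AS1842856 over DMSO (horizontal axis) for the 9 tested Notch genes (red) and 56 other tested pathway genes (blue), in rows by role, with filled points for an adjusted p under 0.05 and names for called changes of at least 1. The 3 receptors lie left of 0, whereas the corepressors and regulators spread to both sides.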

How the data were processed

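RNA-Seq was measured in 6 libraries of BT549 cells. The authors deposited raw counts per Ensembl gene for each library, and FPKM values. The paper names STAR for mapping, while the submitters' processing notes list CASAVA and Bowtie 0.12.2 with GRCh38. The counting tool and the use of strand are not given in the sources used here, so reads of overlapping genes on opposite strands may be shared. All 58735 identifiers were found in GENCODE release 29 (Ensembl 94). For the 10 genes the deposited FPKM corresponded to the merged exon length of that release (100.5% of it).

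The counts went into edgeR 4.0.16 under R 4.3.3. The filter was filterByExpr (minimum count 10, minimum total 15), the scaling TMM (factors 0.995 to 1.01), and the test glmQLFTest after a robust glmQLFit. P-values were adjusted by Benjamini-Hochberg over all 14338 genes tested, with a threshold of 0.05. Standard errors were the log2 fold change divided by the square root of F. The common biological coefficient of variation was 0.0374. The fits were first tested on simulated counts.

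The members and lists were chosen with earlier results of these data known, and the list of other pathway genes was written from general knowledge. Of that list, genes called with a change of at least 1 and the gene with the largest change in each role were named. DLL3, HES6, ADAM10, ADAM17, RBPJ, MAML1, NUMB and SNAI2 were chosen after their values were seen. So were the markers given with values and the genes named for having few counts. Same-lettered libraries of the 2 groups did not deviate together (correlations of -0.0120 to 0.0420 over genes), so the letters were not used as a block. Alternatives were DESeq2 1.42.0, other scalings and filters, the replicate letter as a block, each library left out, and limma 3.58.1 on log2(FPKM + 1) and log2(FPKM + 0.1). Protein sequences were not used here.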

Additional observations from a re-analysis of the deposited data

How the results depend on the processing

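The count of 7 called Notch genes was 4 under limma on log2(FPKM + 1) and on log2(FPKM + 0.1) with a mean FPKM of at least 0.5, since JAG2, DLL1, NOTCH1 and NRARP fall below that level and 6 were tested. It stayed between 5 and 7 under the other settings that kept all libraries, and between 6 and 8 when single libraries were dropped. Low counts limit NOTCH1, JAG2, DLL1 and NRARP most. NOTCH1 lost its call in DESeq2 (log2 fold change -0.59, adjusted p = 0.0798) and under limma on log2(FPKM + 1) with no filter (-0.13, adjusted p = 0.104), and JAG2 under the latter (-0.19, adjusted p = 0.0851), where adding 1 to values this low understates a change. Over all alternatives the adjusted p of NOTCH1 ran from 0.00720 to 0.104 and that of JAG2 from 0.000347 to 0.0851. HES1, which was not called, turned sign without DMSO replicate C (0.0596) and without AS1842856 replicate C (0.0126), in a range of -0.0866 to 0.0596. NRARP passed the filter and the test without AS1842856 replicate C (log2 fold change 1.37, adjusted p = 0.0463, edgeR), and without DMSO replicate B it was tested but not called (adjusted p = 0.250).

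Dropping single libraries placed the log2 fold change between -0.71 and -0.50 for NOTCH1, -1.05 and -0.95 for NOTCH2, -0.53 and -0.43 for NOTCH3, 1.02 and 1.26 for JAG1, -1.71 and -1.51 for DLL1, 1.69 and 1.86 for HEY1, and -0.50 and -0.11 for HES4. The 4 log2 ratios kept their sign without each library. On CPM their differences are the same by construction, since the length of a gene is fixed. Other Notch pathway genes were called in 31 to 40 cases over all settings and all genes in 6523 to 8030. With the replicate block 7862 of all genes and 7 Notch genes were called, and the block changed no call among the 9. Of 12 other genes named by the rule, HES7 lost its call in DESeq2 and under limma with no filter (adjusted p = 0.0820), and the other 11 kept theirs in every fit.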
